A study of Mus musculus with 6 samples.

Results

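The sodium pump (Na,K-ATPase) genes Atp1a4, Atp1b1, Atp1b2 and Atp1b3 were followed through 6 RNA sequencing libraries of embryonic mouse dorsal root ganglia. These 4 of the 37086 genes in the tables were chosen by name and not by a rule on their values, but with earlier results of these data known. In the tables were 8 of their transcripts. The other catalytic alpha genes are not analysed here. The ganglia came from wild-type C57BL/6J embryos at embryonic day 14.5, of unknown sex, and the tissue of 18 embryos was pooled into 1 RNA stock of 100 ng per µl. The high-volume group (3 libraries) received its RNA in 9 µl and the low-volume group (3 libraries) in 1 µl, each with its own SMARTer low-input kit, so reaction volume and kit cannot be told apart. Within each volume, 1 library was made from 3 ng, 1 from 10 ng and 1 from 30 ng of RNA, and all had 3 min of shearing and 12 PCR cycles. Because the 6 libraries are technical repeats of 1 RNA pool, the SDs, SEs and p-values below describe technical variation alone, with no information on variation among animals. The tissue was bulk RNA, so fewer cells of a type and less RNA per cell cannot be told apart.

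The sodium pump uses ATP to move sodium out of the cell and potassium in, and so maintains the gradients on which neuronal excitability depends. A pump is built from a catalytic alpha subunit, which carries out transport, and a glycosylated beta subunit, which is needed for folding and delivery of the complex to the plasma membrane. Small FXYD proteins associate with the complex and modulate its kinetics. Atp1a4 encodes the alpha isoform known from testis and sperm, Atp1b1 the widespread beta isoform, Atp1b2 a beta isoform also known as the glial adhesion molecule AMOG, and Atp1b3 another beta isoform found in many tissues.

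All 4 genes lie on the minus strand of GRCm38. Atp1a4 (ENSMUSG00000007107) was represented by its coding transcript at chr1:172223513-172258414, with 23 exons. Atp1b1 (ENSMUSG00000026576) was represented by its coding transcript at chr1:164437267-164458355, with 6 exons. Atp1b2 (ENSMUSG00000041329) had 5 transcripts in the tables, of which the full-length coding one spans chr11:69599736-69605829 in 7 exons. Atp1b3 (ENSMUSG00000032412) was represented by its coding transcript at chr9:96332680-96364299, with 7 exons. None of these shared exonic bases with another gene in the tables. In GENCODE M21, however, exons of Nme7 on the opposite strand cover 417 bases of the last exon of Atp1b1, and the counts were taken not to use strand.

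The 250 bases before the RefSeq start of 3 members (GRCm38.p6) are shown for their content of CpG, the dinucleotide written in capitals, in 2 detected members and the undetected Atp1a4. RefSeq's promoter table held entries for Atp1b1, Atp1b3 and Atp1a4. The windows, on the minus strand, are chr1:164458356-164458605 for Atp1b1, chr9:96364432-96364681 for Atp1b3 and chr1:172258425-172258674 for Atp1a4. Of the 2 entries for Atp1b3, the one nearest the deposited transcript start was taken, and its start lies 132 bases upstream of that transcript.
Atp1b1: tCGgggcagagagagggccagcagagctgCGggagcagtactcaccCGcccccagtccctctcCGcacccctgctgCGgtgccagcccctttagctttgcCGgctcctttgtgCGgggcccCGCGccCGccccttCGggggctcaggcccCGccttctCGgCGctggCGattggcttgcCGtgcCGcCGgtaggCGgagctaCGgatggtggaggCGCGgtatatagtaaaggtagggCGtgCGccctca
Atp1b3: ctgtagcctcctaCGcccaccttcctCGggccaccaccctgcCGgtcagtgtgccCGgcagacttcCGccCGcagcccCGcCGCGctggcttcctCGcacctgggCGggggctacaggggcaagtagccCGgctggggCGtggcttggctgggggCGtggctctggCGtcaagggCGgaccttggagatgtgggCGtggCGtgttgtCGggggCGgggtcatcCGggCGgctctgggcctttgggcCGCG
Atp1a4: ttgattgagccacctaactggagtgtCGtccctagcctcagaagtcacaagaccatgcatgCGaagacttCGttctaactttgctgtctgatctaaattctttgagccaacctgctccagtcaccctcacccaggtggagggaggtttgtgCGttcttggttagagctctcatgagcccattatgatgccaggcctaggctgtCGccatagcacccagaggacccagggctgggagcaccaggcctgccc
The Atp1b1 and Atp1b3 windows each held 24 CpG, with a GC content of 70.4% and 73.6%. The Atp1a4 window held 5 CpG, with a GC content of 54.8%. Over 32851 promoters of the same length the median was 6 CpG and 52.4% GC, and 88.0% of promoters held fewer CpG than the Atp1b1 window. Searched on both strands, GGGCGG occurred 2 times before Atp1b1 and 5 times before Atp1b3, and 32.7% of all promoters held it. CCAAT occurred 1 time before Atp1b1 and is held by 33.8% of all promoters, while TATAAA, held by 12.4%, was in none of the 3 windows.

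Among the members, the beta genes were detected in every library and the alpha gene in none. Atp1b3 had 27.3, 31.7 and 27.7 RPKM in the high-volume libraries of 3, 10 and 30 ng, against 23.8, 27.3 and 22.8 RPKM in the low-volume libraries. RPKM is the authors' read count scaled to transcript length and to the library's total reads. The highest low-volume value lay just below the lowest high-volume value, and the 10 ng library was the highest of each volume. Atp1b1 had 31.9, 29.2 and 24.4 RPKM in the high-volume libraries, against 19.5, 22.8 and 19.1 RPKM in the low-volume libraries. Every high-volume value of Atp1b1 lay above every low-volume value, an order that 8.1% of all tested genes showed in scaled counts. The counts behind these levels were 801 to 1831 tags (counted reads) per library for Atp1b1 and 735 to 1498 for Atp1b3.

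Atp1b2 was the lowest of the 3 beta genes. Its full-length coding transcript had 7.68, 6.35 and 7.03 RPKM in the high-volume libraries, against 13.5, 8.61 and 6.33 RPKM in the low-volume libraries. The volumes overlapped, and the low-volume 3 ng library stood far above the rest. The transcript with the largest count, a noncoding model, had 5.82, 4.89 and 5.46 RPKM in the high-volume libraries, against 10.3, 6.61 and 4.85 RPKM in the low-volume libraries. Each library held 338 to 720 tags of this model. Atp1a4 had 0 tags in each of the 6 libraries. A floor of 3 tags over all libraries equals 0.00578 RPKM for Atp1a4, so that Atp1b1 was at least 4233-fold, Atp1b3 at least 4628-fold and the coding Atp1b2 transcript at least 1426-fold higher. Floors and intervals cover counting error only.

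**Figure D1:**
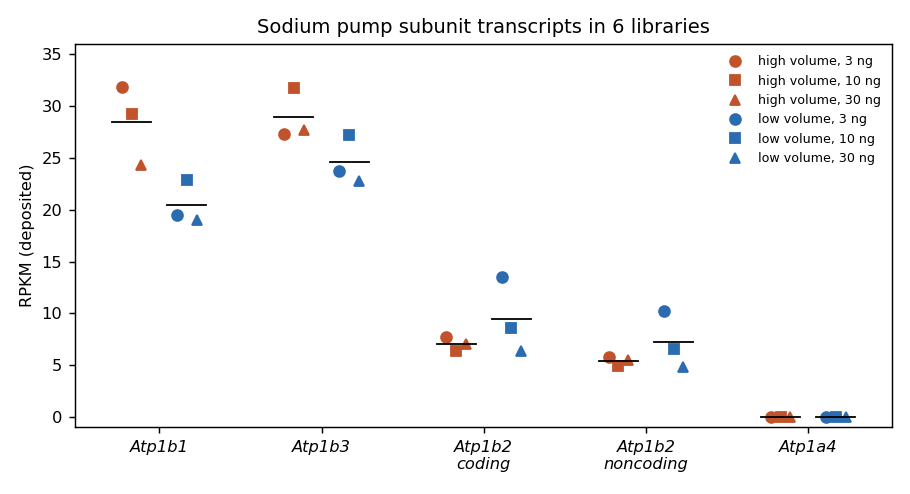
Deposited RPKM of 5 transcripts of the sodium pump genes (horizontal axis) in each library, with high volume left of low volume, a marker shape for each input and a black line at the mean of 3 libraries. Atp1b1 and Atp1b3 sit between 19.1 and 31.9 RPKM, Atp1b2 below them, and Atp1a4 at 0.

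Over all libraries Atp1b3 averaged 26.8 ± 3.18 RPKM, Atp1b1 24.5 ± 5.18 RPKM and the noncoding Atp1b2 model 6.31 ± 2.04 RPKM (SD, n = 6). The coding Atp1b2 transcript averaged 8.25 ± 2.70 RPKM (SD, n = 6). Of the 16120 genes tested for differences, 85.4% had a lower RPKM than Atp1b3, 84.4% a lower one than Atp1b1 and 63.0% a lower one than the noncoding Atp1b2 model. The RPKM of that model is lowered by the length of an intron it keeps, as described below. The 6 pairs of members were compared on log2(RPKM + 1), a scale that understates ratios of low genes, by exact permutation of signs over the libraries (two-sided), which cannot give a p below 0.0312. Atp1b1 minus Atp1b3 was -0.14 ± 0.18 (SD, n = 6), and the exact test gave p = 0.125, with Atp1b1 higher in 1 of 6 libraries. On this scale and over all 6 libraries, these neighbours in the order of levels thus did not differ beyond their spread. Much of that spread came from the high-volume 3 ng library. Without it the difference was -0.21 ± 0.06 (SD), and with 5 libraries this test cannot pass. Atp1b1 exceeded the noncoding Atp1b2 model by 1.82 ± 0.54 and Atp1b3 exceeded it by 1.96 ± 0.45, each in 6 of 6 libraries (exact permutation p = 0.0312, adjusted over the 6 pairs 0.0375). Over Atp1a4, which is at 0, the same scale gave 4.79 ± 0.16 for Atp1b3, 4.65 ± 0.29 for Atp1b1 and 2.83 ± 0.35 for Atp1b2. Each excess was in 6 of 6 libraries (exact permutation p = 0.0312, adjusted 0.0375). With Atp1a4 at 0 in every library, these comparisons could only give the smallest p, so their tests add nothing to the levels. Without the Atp1a4 pairs, the exact permutation p of Atp1b1 and of Atp1b3 against Atp1b2 was 0.0469 after adjustment. With the coding Atp1b2 transcript, the excess of Atp1b1 and of Atp1b3 over Atp1b2 was 1.48 ± 0.55 and 1.62 ± 0.46.

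Each beta gene's part in the summed RPKM of the 3 coding beta transcripts gives the balance within a library. Atp1b1 made up 47.7%, 43.4% and 41.2% of the sum in the high-volume libraries of 3, 10 and 30 ng, against 34.4%, 38.9% and 39.5% in the low-volume libraries. The means were 44.1 ± 3.30% and 37.6 ± 2.80% (SD, n = 3 each), without overlap, and the two-sided exact permutation test gave p = 0.1, the smallest it can give. Atp1b2 made up 11.5%, 9.44% and 11.9% in the high-volume libraries, against 23.7%, 14.7% and 13.1% in the low-volume libraries. Its volumes did not overlap either (exact permutation p = 0.1), but came as near as 11.9% and 13.1%, and its RPKM did overlap. Atp1b3 made up 45.0 ± 3.58% in high volume and 45.2 ± 2.92% in low volume (exact permutation p = 0.8, n = 3 each). The parts of 1 sum are not independent of each other. The sum itself was 66.9, 67.3 and 59.1 RPKM in the high-volume libraries, against 56.8, 58.7 and 48.2 RPKM in the low-volume libraries. These did not overlap, but came as near as 59.1 and 58.7 RPKM. How often such parts and sums of other genes do not overlap was not determined, so these orders are a description only. The ratio of Atp1b1 to Atp1b3 was 1.17, 0.922 and 0.878 in the high-volume libraries, against 0.822, 0.838 and 0.836 in the low-volume libraries, so Atp1b1 exceeded Atp1b3 in the high-volume 3 ng library alone.

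The reaction volume was then compared gene by gene, with input as a covariate, by edgeR's quasi-likelihood test over all 16120 genes. Atp1b1 had 89.6, 80.1 and 67.0 CPM (tags scaled to library size, with TMM factors) in the high-volume libraries of 3, 10 and 30 ng, against 48.2, 56.8 and 48.4 CPM in the low-volume libraries. Atp1b3 had 57.8, 65.5 and 57.5 CPM in the high-volume libraries, against 44.3, 51.1 and 43.6 CPM in the low-volume libraries. In both genes the volumes did not overlap, with high above low, as in 8.1% of all tested genes. Atp1b2 (noncoding model) had 25.3, 20.7 and 23.2 CPM in the high-volume libraries, against 39.2, 25.5 and 19.1 CPM in the low-volume libraries, which overlapped.

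No member passed an adjusted p of 0.05 in that test, and 0.0062% of all tested genes did (1 gene). The log2 difference, high minus low, was 0.61 ± 0.15 for Atp1b1 (SE, edgeR adjusted p = 0.644, unadjusted 0.00393). It was 0.38 ± 0.15 for Atp1b3 (edgeR adjusted p = 0.745, unadjusted 0.0355) and -0.21 ± 0.23 for Atp1b2 (edgeR adjusted p = 0.839). An unadjusted p under 0.05 was reached by 6.67% of all tested genes, and 0.596% had a smaller p than Atp1b1. The median difference over all tested genes was 0.02. DESeq2 called Atp1b1 (log2 difference 0.60, adjusted p = 0.0160) among 1.11% of tested genes, and did not call Atp1b3 (0.37, adjusted p = 0.205). That share counts all genes in the fit, also those given no adjusted p by DESeq2, Atp1b2 among them. It is therefore higher among the genes that could be called. In the 10 and 30 ng libraries alone, a fit with 1 residual degree of freedom, 1.65% of tested genes passed in edgeR, and no member did, with log2 differences of 0.48 for Atp1b1 (adjusted p = 0.0581), 0.38 for Atp1b3 (adjusted p = 0.131) and -0.01 for Atp1b2 (adjusted p = 0.994). Without the low-volume 3 ng library the difference of Atp1b2 was -0.03.

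In summed deposited RPKM some marker lists were apart between the volumes, while those of endothelium, fibroblasts and macrophages overlapped. These sums carry no TMM factors, which were 0.944 to 0.973 in high volume and 1.03 to 1.06 in low volume. On the TMM-scaled counts of edgeR, the median log2 volume difference was -0.0038 for the neuron and 0.02 for the glial markers. Whether the lists stay apart after such scaling was not tested. The summed RPKM of the 3 spinal cord markers was 7.68 to 11.7 in high volume and 2.47 to 3.85 in low volume. It was carried by Hes5, so the sum follows 1 gene and not the list. Hes5 shares exonic bases with another gene, as Pax6 does. Olig2 had 0 to 1 tags and Pax6 went the other way (edgeR log2 volume difference -0.87 ± 1.41, SE). The sum of the 3 erythroid markers was 4311 to 4535 in high volume and 3656 to 4071 in low volume. The globins Hbb-y (log2 volume difference 0.33) and Hbb-bs (0.31) carried it, while Alas2 lay at -4.5e-05. For the 6 sensory neuron markers the sum was 4614 to 5315 in high volume and 5443 to 6072 in low volume, carried by Tubb3. For the 5 glial markers it was 925 to 994 in high volume and 1032 to 1069 in low volume. Neither list moved as a whole, since 3 of the 6 neuron genes had a log2 volume difference above 0 in edgeR, Prph among them at 0.41 and Tubb3 at -0.21, and of the 5 glial genes 3 lay above 0. Each neuron and glial marker reached 10 RPKM on average, and the testis and sperm markers, the tissue where Atp1a4 is known, had at most 2 tags in any library. The part of these lists in the members' differences was not tested.

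The amount of input RNA moved no member past the threshold. The slope on log2 input, per doubling, was -0.06 ± 0.06 for Atp1b1 (SE, edgeR adjusted p = 0.745) and -0.00 ± 0.06 for Atp1b3 (edgeR adjusted p = 0.991). For Atp1b2 it was -0.18 ± 0.08 (SE, edgeR unadjusted p = 0.0714). Leaving out 1 library moved the slope over -0.13 to -0.02 for Atp1b1, the steepest without the low-volume 3 ng library, and over -0.28 to -0.08 for Atp1b2, the steepest without the high-volume 30 ng library. Of all tested genes 0% passed the adjusted threshold, and 7.77% had an unadjusted p under 0.05 in edgeR, while DESeq2 called 0.223%. The interaction of volume with log2 input was -0.13 for Atp1b1, 0.28 for Atp1b2 and 0.00 for Atp1b3 (edgeR adjusted p = 0.702, 0.583 and 0.996 in that order).

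**Figure D2:**
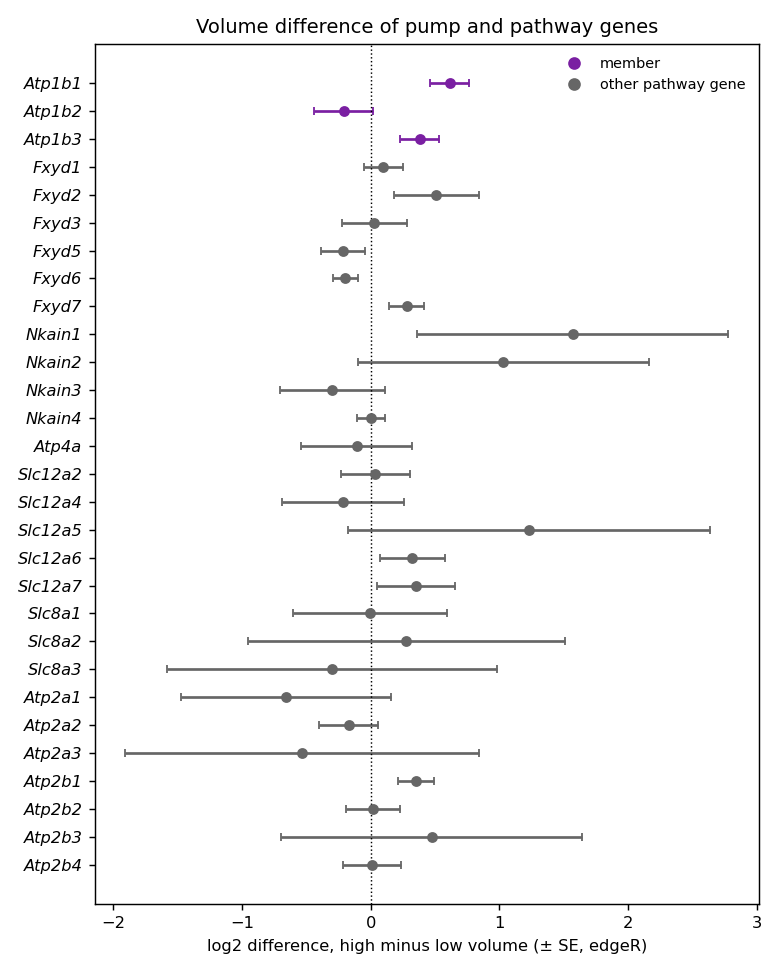
Log2 difference between high and low volume (horizontal axis, high minus low) with its SE from edgeR for the 3 tested members and the 26 tested genes of the pathway list. Atp1b1 at 0.61 and Atp1b3 at 0.38 lie right of 0 and Atp1b2 at -0.21 left of it, and no gene plotted passed the adjusted threshold.

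Averaged over the libraries, tag density was lowest in the first exon of each beta gene. In Atp1b1 the mean exon RPKM over 6 libraries was 3.28 in exon 1, 15.6 in exon 2, 19.4 in exon 3, 22.2 in exon 4, 32.9 in exon 5 and 35.7 in exon 6, an increase toward the 3' end at each step. In the coding Atp1b2 transcript the range was 4.59 in exon 1 to 14.7 in exon 5, with 9.04 in the last exon. Its exon 5 is 57 bases long and held 7 to 31 tags per library. That exon had 32.1 RPKM in the low-volume 3 ng library and at most 13.1 in the others. In Atp1b3 the range was 9.40 in exon 1 to 50.1 in exon 5, with 29.5 in the last exon. Exon 5 of Atp1b3 is 51 bases long, so that few tags stand behind its density (42 to 79 per library). In Atp1b1 the high-volume density exceeded the low-volume density 2.86-fold in exon 2, 1.76-fold in exon 3 and 1.56-fold in exon 4, without overlap of the volumes. The ratio was 1.22 in exon 5 and 1.30 in exon 6, where the volumes overlapped. Exon 1 of Atp1b3 had 12.2 ± 2.09 RPKM in high volume and 6.64 ± 1.65 RPKM in low volume (SD, n = 3 each), again without overlap. Exon 2 of Atp1b2 went the other way, with 5.35 ± 1.16 RPKM in high volume and 9.93 ± 2.87 RPKM in low volume, and did not overlap. It held only 8 to 37 tags per library, and the volumes came as near as 6.05 and 7.08 RPKM. Of the 20 exons of the beta genes, high volume lay wholly above low volume in 4 and wholly below it in 1. Over all 63324 exons with at least 100 tags of the genes described next, these shares were 3.64% and 14.6%. The measures are unlike, since those shares were taken on CPM without TMM factors and the 20 exons were compared on deposited RPKM. The exons named were picked for not overlapping, and single exons were not tested.

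**Figure D3:**
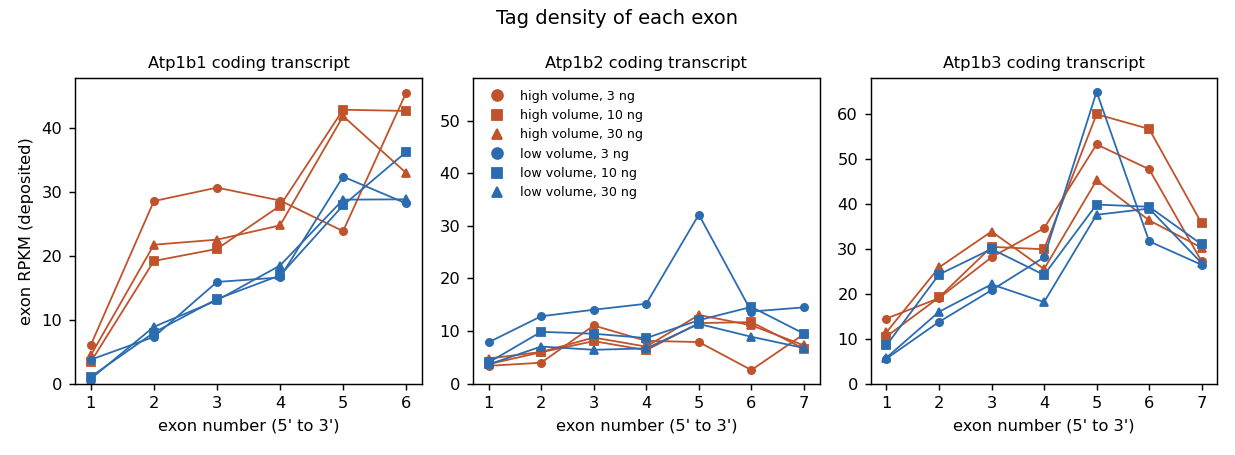
Deposited RPKM of each exon (vertical axis) by exon number for the coding transcripts of Atp1b1, Atp1b2 and Atp1b3, with 1 line per library. The high-volume lines of Atp1b1 lie above the low-volume lines in exons 2 to 4, and the low-volume 3 ng library is highest in exon 5 of Atp1b2 and of Atp1b3.

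Split at the last exon, the volumes of Atp1b1 were apart upstream and overlapped in the last exon. Exons before the last held 21.2, 18.2 and 18.6 CPM (here without TMM factors) in the high-volume libraries of 3, 10 and 30 ng, against 12.2, 9.99 and 10.2 in the low-volume libraries. The volumes did not overlap, as with high above low in 5.63% of 10640 genes with at least 3 exons and 500 tags. The means were 19.3 ± 1.62 and 10.8 ± 1.21 CPM (SD, n = 3 each, log2 ratio 0.84, exact permutation p = 0.1). The last exon held 56.2 ± 9.29 in high volume and 42.5 ± 6.45 in low volume, which overlapped (log2 ratio 0.40, exact permutation p = 0.2, n = 3 each). It was higher in high volume in each of the 3 input pairs, as in 8.7% of the 10640 genes. The last exon's share of Atp1b1 tags was 74.9%, 76.6% and 71.1% in the high-volume libraries, against 75.8%, 83.3% and 79.5% in the low-volume libraries, which overlapped. The means were 74.2 ± 2.84% in high volume and 79.5 ± 3.77% in low volume (exact permutation p = 0.2, n = 3 each), and the share was lower in high volume in each of the 3 input pairs, as in 18.6% of the 10640 genes. The exact sign-flip permutation test over these pairs gave p = 0.25, the smallest 3 pairs can give. The difference between the means ranged from -7.18 to -3.41 percentage points when 1 library was left out. This last exon is the one that Nme7 exons cover in part in GENCODE M21. Nme7 had a mean of 18.6 RPKM, over a transcript in the tables that ends before that exon. The part of Nme7 in the last-exon tags was not tested.

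In Atp1b3 the exons before the last held 24.4, 23.9 and 21.8 CPM in the high-volume libraries, against 17.6, 19.9 and 15.6 in the low-volume libraries. Again the volumes did not overlap (log2 ratio of means 0.40, exact permutation p = 0.1, n = 3 each). Its last exon held 34.5 ± 4.89 in high volume and 30.6 ± 2.99 in low volume, with overlap (exact permutation p = 0.3, n = 3 each). The last exon's share of Atp1b3 tags was 59.4 ± 3.69% in high volume and 63.4 ± 1.77% in low volume (exact permutation p = 0.2, n = 3 each). Its last exon was higher and that share lower in high volume in each of the 3 pairs, and the difference in share was -1.90 percentage points without the high-volume 3 ng library, against -3.96 with it. In Atp1b2 the upstream exons held 6.57, 7.57 and 8.43 CPM in the high-volume libraries, against 14.8, 9.21 and 7.11 in the low-volume libraries, which overlapped (exact permutation p = 0.3, n = 3 each). Over the 10640 genes the median log2 ratio was -0.09 upstream and -0.14 in the last exon.

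**Figure D4:**
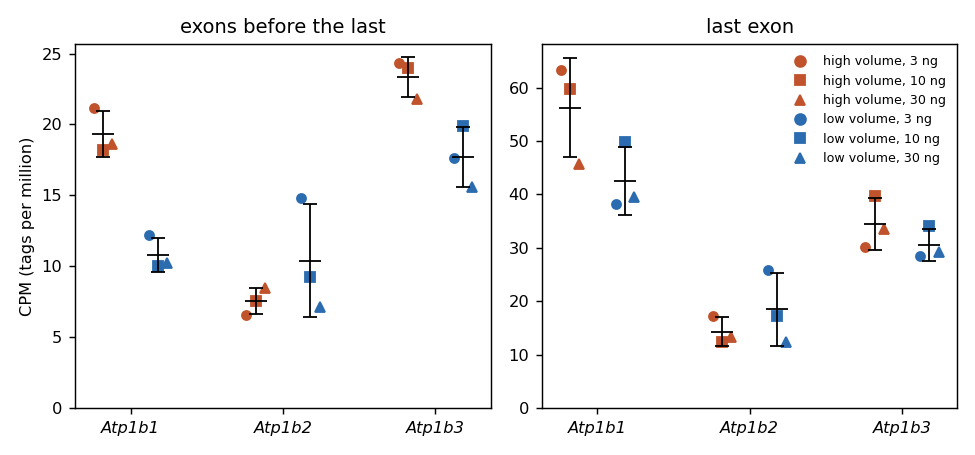
CPM (vertical axes) in the exons before the last and in the last exon of each beta gene, with high volume left of low volume, a point per library and black bars for mean ± SD of 3 libraries. The Atp1b1 and Atp1b3 volumes are apart upstream (19.3 and 10.8 for Atp1b1) and overlap in the last exon.

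The transcript models of Atp1b2 could be separated where their exons differ. The noncoding model keeps intron 5 of the coding transcript, an 801-base stretch at chr11:69601624-69602424 (GRCm38), as exon. Its borders are shown on the minus strand, with the splice dinucleotides at the intron ends in capitals, at chr11:69602395-69602454 for the donor side and chr11:69601594-69601653 for the acceptor side.
Donor side: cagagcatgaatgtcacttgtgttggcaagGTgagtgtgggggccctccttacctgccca
Acceptor side: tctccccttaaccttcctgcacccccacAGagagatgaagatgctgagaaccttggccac
This intron held 2 tags over all 6 libraries, 1 in the high-volume 30 ng library and 1 in the low-volume 30 ng library. The flanking exons 5 and 6, only 156 bases in sum, held 278. The noncoding model also begins 113 bases further upstream, and that stretch held 38 tags, 0, 7 and 13 in the high-volume libraries of 3, 10 and 30 ng and 3, 9 and 6 in the low-volume libraries. The intron 5 tag of the high-volume 30 ng library is also the single tag of the exons found only in a shorter coding and a shorter noncoding model, which overlap each other. The larger count of the noncoding model thus came from its longer first exon and those 2 intron tags, and its RPKM is lowered by the kept intron's length.

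Introns carried few tags except in Atp1b3. Intron tags of Atp1b3 numbered 114, 137 and 155 in the high-volume libraries of 3, 10 and 30 ng, against 9, 194 and 129 in the low-volume libraries. As a percentage of intron and exon tags this was 12.9%, 8.38% and 9.79% in the high-volume libraries, against 1.21%, 11.8% and 8.36% in the low-volume libraries. The low-volume 3 ng library lay below the others, with a Wilson 95% interval of 0.638% to 2.28%. In the high-volume 3 ng library 42 of the 114 intron tags lay in intron 5, where the other libraries had 0 to 4. The longest intron, intron 1 with 18152 bases, held 46, 107 and 117 tags in the high-volume libraries, against 3, 159 and 92 in the low-volume libraries. Atp1b1 introns held 0.866% to 3.71% of its tags and Atp1b2 introns at most 0.530%. In Atp1a4, 31432 intron bases held 3 tags in all.

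**Figure D5:**
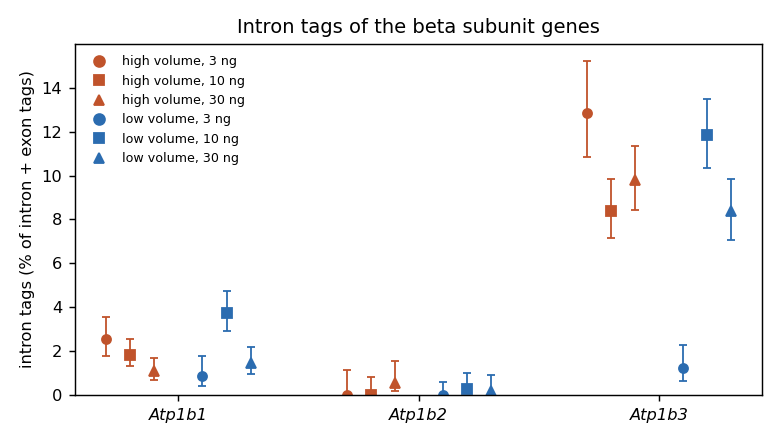
Intron tags as a percentage of intron plus exon tags (vertical axis) of each beta gene by library, high volume left of low volume, with Wilson 95% intervals. Atp1b3 lies between 8.36% and 12.9% in 5 libraries and at 1.21% in the low-volume 3 ng library.

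Of 30 other genes of the pump pathway, 26 were tested, and 0 passed the adjusted threshold for volume or for input. For volume 16 of the 26 lay above 0, with a median log2 difference of 0.02, and 1 had an unadjusted p under 0.05 in edgeR (Atp2b1, a plasma membrane calcium pump, 0.35). DESeq2 called 0 of the 26 for volume, where it gave 7 of them an adjusted p, and 0 for input. For input 0 had an unadjusted p under 0.05 in edgeR. Among the FXYD regulators Fxyd7 was the highest, at 474 ± 72.9 RPKM (SD, n = 6), followed by Fxyd6 at 88.9 ± 12.2, Fxyd1 (phospholemman) at 81.6 ± 6.77, Fxyd5 (dysadherin) at 35.1 ± 6.49 and Fxyd2, the gamma subunit, at 17.1 ± 4.50. Fxyd3 had 3.96 ± 0.748 RPKM and shares exonic bases with another gene, and Fxyd4 had 0 to 5 tags per library. The 6 tested FXYD genes had a median log2 volume difference of 0.06, with 4 above 0. Nkain4, whose family is named for its interaction with the pump, had 137 ± 9.41 RPKM and also shares exonic bases with another gene. Of the related pump subunits, Atp4b and Atp12a had 0 tags and Atp1b4 0 to 12 tags per library, while Atp4a had 1.15 ± 0.291 RPKM.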

How the data were processed

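Libraries of 1 pool of dorsal root ganglion RNA were sequenced, and the submitters' processing notes name TopHat2 2.0.8, Bowtie2 2.1.0, CASAVA 1.8 and the GRCm38.p1 build. How reads were counted, with which annotation, and how multiple matches were treated is not given in the sources used here. In the deposited files there is a whole-number tag count for each transcript, exon and intron. The authors' RPKM is that count scaled to feature length and library total. Transcript IDs were matched to GENCODE M21 (89664 of 93615), and each of 37086 genes was represented by its transcript with the largest summed count, 14160401 to 31524211 tags per library. Intervals present on both strands had equal counts on each, so counting was taken not to use strand.

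Differences in counts were tested in R 4.3.3 with edgeR 4.0.16 (quasi-likelihood, TMM, filterByExpr, 16120 genes, Benjamini-Hochberg over all genes) with volume and centred log2 input in the model, which left 3 residual degrees of freedom. DESeq2 1.42.0 was an alternative. The test was tried on simulated counts. Libraries of the same input deviated together only weakly (correlations of 0.111 at 10 ng, 0.132 at 3 ng and 0.126 at 30 ng). These were not set against libraries of different input. A block by input was fitted as an alternative, and the exact tests of high against low volume ignore input unless stated. Single values were compared by exact permutation tests in SciPy 1.17.1. Named genes were the members, the FXYD genes, pathway genes with a mean RPKM of 10 or more or an adjusted p under 0.05, and for each tested member the 3 genes with the smallest root mean square difference of centred log2 CPM. The related pump subunits fall outside this rule and were named after their values were seen. A gene of the pathway list is not reported here. The members and lists were chosen with earlier results of these data known.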

Additional observations from a re-analysis of the deposited data

Results flagged for a closer look

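Over the 6 libraries, 17 series of values were checked for a sample far from the others, and 5 had one. Chance flags about 1 in 20 groups, and several of these series rest on the same counts. Atp1b2 was highest in the low-volume 3 ng library, with 10.3 RPKM for the noncoding model against 6.61 in the nearest library, and 13.5 RPKM for the coding transcript against 8.61. Its part of the summed beta RPKM there was 23.7%, against 14.7% in the nearest library. The ratio of Atp1b1 to Atp1b3 RPKM was 1.17 in the high-volume 3 ng library, against 0.922 in the nearest. The last exon held 72.5% of the tags of the coding Atp1b2 transcript in the high-volume 3 ng library, against 65.3% in the nearest. All 5 values come from a 3 ng library, the shallowest input of each volume, and the part of depth in them was not tested.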

How the results depend on the processing

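The count of genes called for volume, 1 in the reported fit, was 11 without the filter on low counts, 0 with the replicate block by input, 274 in the 10 and 30 ng libraries alone and 179 with DESeq2. Leaving out 1 library gave 0 to 2, with 0 without the low-volume 3 ng library and 2 without the high-volume 30 ng library. For input, the count of 0 became 2 without the filter, 1 in the 10 and 30 ng libraries and 36 with DESeq2. The cause was not tested. Of the members' volume differences, 37 alternatives kept direction and call, and 1 passed the threshold, that of Atp1b1 with DESeq2 (0.60). The range was 0.45 to 0.71 for Atp1b1, 0.26 to 0.46 for Atp1b3 and -0.45 to -0.01 for Atp1b2. With the replicate block no member was called. For Atp1b2 DESeq2 gave no adjusted p. The input slope of Atp1b3 changed sign to 0.0031 without the filter, 0.0212 without the high-volume 30 ng library and 0.0233 without the low-volume 30 ng library, and it ranged over -0.0341 to 0.0233 when 1 library was left out. Atp1b1 minus Atp1b3 became 0.26 ± 0.19 (SD) with CPM in place of RPKM, which leaves out transcript length. There it passed the threshold in the other direction (exact permutation, adjusted p = 0.0312). The other 56 values of pairs kept direction and call or moved by less than 1 SD. With 5 libraries the sign-flip test cannot pass. The last-exon share, high minus low, ranged over -7.18 to -3.41 points for Atp1b1, -5.45 to -1.90 for Atp1b3 and -2.48 to 3.12 for Atp1b2 (-2.48 without the high-volume 3 ng library). Pairing by input cannot change a mean difference, so it is no check on these values, and only the p can move. That pairing, like the interaction model, was chosen after seeing the data.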

Other observations

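The genes closest to each member over the 6 libraries were found by the root mean square difference of mean-centred log2 CPM, among tested genes within 4-fold of its CPM. For Atp1b1 they were Prpsap2 (0.0778), Mta1 (0.0779) and Slc25a1 (0.0817), against a median of 0.417 over 4195 candidates. For Atp1b2 they were Zbtb48 (0.0488), Tnrc6a (0.0905) and Smox (0.0970), against a median of 0.443 over 5613 candidates. For Atp1b3 they were Tspan3 (0.0690), Amigo1 (0.0746) and Sec14l1 (0.0839), against a median of 0.338 over 4582 candidates. These genes were picked as the smallest of all candidates over 6 libraries of 1 RNA pool, so the values are a description only.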
